A study of Mus musculus with 20 samples.

Results

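The genes followed here, 10 in number, act in the mitotic cell cycle, and their transcripts were measured in mouse blood during tumour growth. They are Mki67, Ube2c, Ccna2, Nusap1, Birc5, Ccnb1, Top2a, Cdc20, Plk1 and Aurka. They were chosen by name from the 27573 gene names on the array, and all their probes were taken, 16 of the 41174 gene probes, of which 11 were bright enough to be among the 20903 probes tested, with at least 1 for each of the 10 genes. Blood came from 4 female C57Bl/6 mice, numbered 305, 310, 315 and 320, each bled before inoculation (day 0) and on days 10, 15, 20 and 25 after Hepa1-6 cells, a cultured mouse hepatoma line, were placed under the skin. Each of the 20 arrays held the RNA of 1 bleed in the red dye Cy5 and, in the green dye Cy3, a common reference of blood RNA from untreated female C57Bl/6 mice. Values are log2 ratios of the mouse sample over that reference after background correction and loess normalization, so 0 means a level equal to the reference on that scale. No arrays of uninoculated mice on days 10 to 25 were used here, and the 4 arrays of a day shared 1 slide, so that tumour growth, time, repeated bleeding and slide cannot be told apart.

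These genes are switched on as a cell moves through G2 and mitosis and are low in resting cells. Cyclins A2 and B1 activate the kinases that drive entry into mitosis, Polo-like kinase 1 and Aurora A build the spindle poles, survivin belongs to the complex that corrects kinetochore attachment, and CDC20 and UBE2C direct the anaphase-promoting complex that ends mitosis. Most white cells of normal blood do not divide, and red cell precursors lose their nucleus in the marrow or, in the mouse, also in the spleen, so that transcripts of this kind in blood can come from activated lymphocytes, from circulating immature cells or, as RNA left behind, from reticulocytes.

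Many genes of this kind are regulated through a pair of short promoter elements, the CCAAT box, bound by NF-Y, and the cell cycle genes homology region (CHR), TTTGAA, bound by the MuvB complexes. Windows running from 250 bases before to 50 bases after the annotated start were taken from RefSeq (GRCm38.p6) and were found for 9 of the 10 genes; Ccna2 had none in the table used. Those shown belong to the 4 genes with a bright probe and a window whose ratio moved most over the days, 5′ to 3′ along the gene, with every TTTGAA and CCAAT on either strand in capitals (reverse complements TTCAAA and ATTGG; neighbouring matches may overlap).
Mki67, chr7:135716330-135716629, minus strand: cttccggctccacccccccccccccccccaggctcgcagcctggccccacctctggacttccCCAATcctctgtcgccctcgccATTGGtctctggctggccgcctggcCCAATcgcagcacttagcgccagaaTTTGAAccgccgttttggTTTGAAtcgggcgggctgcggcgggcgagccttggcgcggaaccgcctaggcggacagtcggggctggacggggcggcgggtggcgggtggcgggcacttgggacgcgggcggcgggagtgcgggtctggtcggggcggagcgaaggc
Ube2c, chr2:164769679-164769978, plus strand: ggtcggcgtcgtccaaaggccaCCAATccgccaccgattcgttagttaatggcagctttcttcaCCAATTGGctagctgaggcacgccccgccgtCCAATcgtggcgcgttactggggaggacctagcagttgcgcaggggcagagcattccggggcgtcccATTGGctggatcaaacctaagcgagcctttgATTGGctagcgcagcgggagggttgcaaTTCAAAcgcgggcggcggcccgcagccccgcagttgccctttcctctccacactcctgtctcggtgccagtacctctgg
Nusap1, chr2:119618048-119618347, plus strand: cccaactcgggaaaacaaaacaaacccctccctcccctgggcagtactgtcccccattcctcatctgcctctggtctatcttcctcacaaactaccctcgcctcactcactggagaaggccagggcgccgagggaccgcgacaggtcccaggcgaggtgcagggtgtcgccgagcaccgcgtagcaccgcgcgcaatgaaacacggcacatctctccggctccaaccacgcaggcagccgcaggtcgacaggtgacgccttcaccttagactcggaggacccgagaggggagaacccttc
Birc5, chr11:117848987-117849286, plus strand: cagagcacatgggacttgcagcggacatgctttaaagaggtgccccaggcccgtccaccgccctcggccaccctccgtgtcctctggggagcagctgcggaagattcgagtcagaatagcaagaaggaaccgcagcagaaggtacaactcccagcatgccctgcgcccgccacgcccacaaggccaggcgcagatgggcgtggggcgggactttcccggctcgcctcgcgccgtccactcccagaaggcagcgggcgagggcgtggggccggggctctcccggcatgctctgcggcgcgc
Mki67 held 2 TTTGAA and 3 CCAAT matches and Ube2c 1 and 6. Nusap1 and Birc5, whose ratios followed a similar course, held neither string in this window. Over all 9 windows, 6 held TTTGAA and 7 held CCAAT, against 17.9% and 37.4% of the 32841 windows of the table. Top2a, with 2 and 6 matches, and Cdc20, Plk1 and Aurka, with 1 TTTGAA match each, also held both strings. Matches were thus found both in genes that passed the F test over the days, given below, and in genes that did not. Low signal limits Top2a, Cdc20, Plk1 and Aurka, so that their small ratios are not evidence of a steady level.

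Arrays differed in brightness. Between 38.1% and 52.2% of spots were well above background in Cy5, and the median net Cy5 intensity was 13.0 to 29.7 on the later days and 50.1 to 69.6 on day 0. The noise width that the background model estimated for Cy5 ran from 1.42 to 814 intensity units over the 20 arrays, and a probe near or below that width is drawn toward a ratio of 0. Mki67, Ube2c, Ccna2, Nusap1 and Birc5 were well above background in Cy5 on all 20 arrays, and so were Top2a and Cdc20. Plk1 was on 19, Aurka on 16 and Ccnb1 on 4, so that values near 0 for the last of these say little about its level. No spot of these probes was saturated or marked as non-uniform.

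Mki67, Ube2c, Ccna2, Nusap1 and Birc5 carried nearly all of the movement. By limma's moderated F test over the 5 days, 6 of the 11 probes differed at an adjusted p under 0.05 (Benjamini-Hochberg over all probes tested): both of Mki67 and those of Ube2c, Ccna2, Nusap1 and Birc5, against 27% of all probes. The adjusted p was lowest for Ube2c (0.00017), followed by Nusap1 (0.00042), Ccna2 (0.0010), Mki67 (0.0018) and Birc5 (0.0027). Top2a (0.12), Cdc20 (0.20), Aurka (0.37), Ccnb1 (0.39) and Plk1 (0.89) did not pass. When each array was centred on its median and loess was left out (median centring), none of the 11 passed this test.

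**Figure D1:**
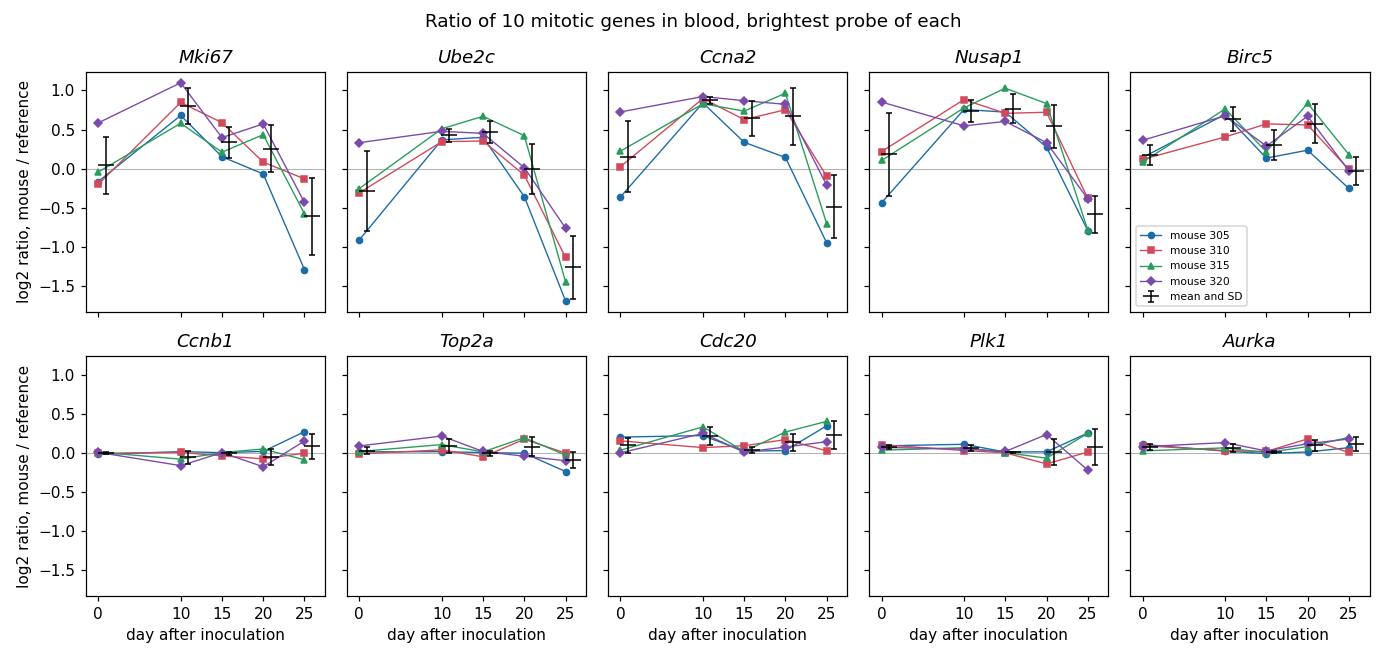
Log2 ratio of mouse blood over the common reference (y axis) by day after inoculation (x axis) for the brightest probe of each gene. Coloured points joined by lines are the 4 mice and black bars the mean and SD of a day (n = 4). Mki67, Ube2c, Ccna2, Nusap1 and Birc5 had their lowest mean on day 25, and the other 5 genes stayed between -0.24 and 0.40; under median centring the day 10 means of the first 5 lie below those of day 0 instead.

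Mki67 encodes Ki-67, the coat protein of mitotic chromosomes used as a proliferation marker. In mice 305, 310, 315 and 320 its ratio was -0.16, -0.20, -0.04 and 0.59 on day 0, and 0.68, 0.85, 0.58 and 1.10 on day 10. It was 0.15, 0.59, 0.21 and 0.40 on day 15, then -0.07, 0.08, 0.44 and 0.57 on day 20, and -1.29, -0.13, -0.58 and -0.43 on day 25. Every mouse was thus highest on day 10 and lowest on day 25, except mouse 310, whose day 0 value was its lowest, and day 10 overlapped day 0 only through mouse 320. The day 25 array of mouse 310 had a Cy5 noise width of 688, above the net Mki67 intensities of that day (290 to 503). On day 15 the width was 457 to 814 in mice 305, 315 and 320 and 71.9 in mouse 310, against net Mki67 intensities of 421 to 481. The day 15 ratios of mice 305, 315 and 320 can thus be drawn toward 0, and the part of this in the day 10 peak was not tested. A second Mki67 probe ran the same way with smaller steps, with means of -0.026 on day 0, 0.44 on day 10 and -0.29 on day 25.

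Ccna2 encodes cyclin A2, needed in S phase and for entry into mitosis. Its ratio was -0.36, 0.03, 0.22 and 0.72 on day 0 in the same order of mice, and 0.84, 0.90, 0.83 and 0.92 on day 10. It was 0.34, 0.63, 0.74 and 0.87 on day 15, 0.14, 0.75, 0.96 and 0.82 on day 20, and -0.95, -0.10, -0.70 and -0.21 on day 25. The spread between mice was small on day 10 (0.87 ± 0.045, SD, n = 4) and wider on day 0 (0.15 ± 0.45). All 4 values of day 25 lay below all values of days 10, 15 and 20. Ccnb1, the other cyclin, kept between -0.18 and 0.27 on all arrays with a signal mostly at background. Its probe was well above background in Cy5 on 3 arrays of day 25, 1 of day 0 and none of the other days. It thus passed the filter mainly through day 25, so that a higher value on that day is no support for a rise.

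Ube2c encodes the ubiquitin-conjugating enzyme of the anaphase-promoting complex. Its ratio was -0.91, -0.31, -0.25 and 0.33 on day 0, and 0.37, 0.35, 0.51 and 0.48 on day 10. It was 0.40, 0.35, 0.67 and 0.45 on day 15, -0.36, -0.08, 0.42 and 0.01 on day 20, and -1.69, -1.13, -1.44 and -0.76 on day 25. Day 10 and day 15 each lay wholly above day 0, and day 25 wholly below days 10, 15 and 20. Cdc20, which activates the same complex, ranged from 0.00014 to 0.40 with no day standing apart. Its net Cy5 intensity was 60.0 to 86.5 on day 15, near or below the noise widths of that day (71.9 to 814).

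Nusap1 encodes a protein that bundles spindle microtubules. Its ratio was -0.44, 0.22, 0.11 and 0.85 on day 0, and 0.76, 0.88, 0.78 and 0.55 on day 10. It was 0.72, 0.71, 1.03 and 0.60 on day 15, 0.28, 0.72, 0.83 and 0.33 on day 20, and -0.79, -0.38, -0.78 and -0.38 on day 25. Mouse 320 began high and mouse 305 low, and days 10 to 20 overlapped day 0 only through mouse 320. Day 25 also overlapped day 0, through mouse 305, but none of days 10, 15 and 20. A second Nusap1 probe was well above background on only 2 arrays and was not tested.

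Birc5 encodes survivin, a subunit of the chromosomal passenger complex. Its ratio was 0.14, 0.12, 0.08 and 0.36 on day 0, and 0.69, 0.41, 0.76 and 0.68 on day 10. It was 0.14, 0.57, 0.22 and 0.29 on day 15, 0.24, 0.56, 0.84 and 0.67 on day 20, and -0.25, -0.01, 0.18 and -0.03 on day 25. Day 10 lay wholly above day 0 and day 25, and day 20 also lay wholly above day 25. Top2a, the topoisomerase that untangles sister chromatids, had -0.24 to -0.0029 on day 25 and 0.015 to 0.21 on day 10, which did not overlap, the means differing by 0.19. The kinases Plk1 (-0.22 to 0.25) and Aurka (-0.0096 to 0.20) lay lower on day 15 than on day 0 in 4 of 4 mice, with mean differences of -0.07 each that did not pass (adjusted p = 0.94 and 0.66). Their net Cy5 intensities on day 15 were 17.1 to 41.9 and 14.5 to 28.9, below the noise widths of that day (71.9 to 814). A probe below the width is drawn toward 0, and the part of this in the direction was not tested.

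Against day 0, day 10 was higher for 5 of the 11 probes at an adjusted p under 0.05 (limma), against 4.09% of all probes called higher, and none was lower. The differences were 0.76 ± 0.22 (SE) for Mki67 (adjusted p = 0.030), 0.71 ± 0.21 for Ube2c (0.040), 0.72 ± 0.21 for Ccna2 (0.038) and 0.46 ± 0.12 for Birc5 (0.023), each higher in 4 of 4 mice. The second Mki67 probe differed by 0.46 ± 0.12 (0.023), and Nusap1 by 0.56 ± 0.20 without passing (0.076, higher in 3 of 4 mice). The other 5 genes differed by -0.05 to 0.12, and their 95% intervals reached no further than -0.19 and 0.28. The median over the 11 probes was 0.46, against -0.02 over all probes. This direction depends on the normalization: under median centring the differences were -0.39 for Mki67, -0.76 for Ube2c, -0.59 for Ccna2, -0.57 for Birc5 and -0.40 for the median of all probes, and none of the 11 probes passed. Relative to that median Mki67 was at 0.0021 and the other 3 were below it. With spike-in and with late erythroid centring, which move the median of all probes to -0.58 and -0.64, Mki67 (0.20 and 0.14), Ube2c (0.16 and 0.097) and Ccna2 (0.16 and 0.11) stayed positive without passing, Birc5 turned to -0.096 and -0.16, and the 5 probes called in each case were all lower. Of all 20903 probes, 18037 and 18618 were called lower under these centrings, and 78 and 46 higher. The day 10 difference also rests on few arrays. Without mouse 305, 310 or 315 of day 0 or mouse 320 of day 10 none of the 11 probes passed, without mouse 305 of day 10 only 1 and without mouse 315 of day 10 only 2 did.

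On day 15, Ube2c alone passed, at 0.75 ± 0.21 over day 0 (adjusted p = 0.043, higher in 4 of 4 mice), against 2.03% of all probes called higher, and its difference was -0.64 under median centring. This call was lost without any of 14 of the 20 arrays, and leaving 1 array out gave 0 to 3 of the 11 probes. The day 15 calls also varied with the background treatment, and the noise width was 71.9 to 814 on that day, against 52.6 to 664 on day 0. With background subtracted, with none removed, with the scanner software's ratios and with Cy5 alone, 6 of the 11 probes passed as higher in each case, and 0, 1, 2 and 0 passed as lower. Of all 20903 probes, 3247, 3462, 3211 and 3743 were called higher under these settings, and 4705, 4809, 5939 and 6100 lower. Mki67 was then 0.92, 0.71, 1.03 and 0.62 above day 0 in the same order of settings, and Ccna2 1.02, 0.90, 1.29 and 0.79 above it.

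On day 20 none of the 11 probes passed (2.94% of all probes were called in either direction; 2 of the 11 had an unadjusted p under 0.05), with differences from day 0 of -0.06 to 0.52. With the mouse as replicate block, Ccna2 (0.52, adjusted p = 0.041) and Birc5 (0.40, 0.043) passed as higher; their differences were -0.27 and -0.18 under median centring. On day 25 none passed either (0.148% in either direction; 5 of the 11 had an unadjusted p under 0.05). Ube2c was at -0.97 ± 0.21 relative to day 0 (adjusted p = 0.067), Nusap1 at -0.77 ± 0.20 (0.092), Mki67 at -0.65 ± 0.22 (0.14) and Ccna2 at -0.64 ± 0.21 (0.14), and each of these 4 was below 0 under all 15 alternatives. Those that change only the probes tested, the brightness scale or the replicate block cannot change these differences. With the replicate block Ube2c (0.012) and Ccna2 (0.040) passed as lower, and without mouse 310 of day 25 so did Mki67 (0.026), Ube2c (0.014), Ccna2 (0.036) and Nusap1 (0.021). The Cy5 noise width was 688 on that array, against 1.42 to 1.81 on the others of day 25. Net Cy5 intensity on day 25 was 290 to 503 for Mki67, below that width. It was 733 to 915 for Ccna2, 2683 to 3263 for Ube2c and 2430 to 2896 for Nusap1, above the width. The part of the width in these calls was not tested. Without mouse 305 of day 0, Ube2c (0.0077) and Nusap1 (0.011) passed.

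The clearest difference lay between day 25 and day 10. On day 25, 7 of the 11 probes, those of 6 genes, were lower than on day 10, against 13.8% of all probes called lower, and none was higher. The difference was -1.68 ± 0.21 for Ube2c (SE, adjusted p = 7.5e-05), -1.41 ± 0.22 for Mki67 (0.00022), -1.36 ± 0.21 for Ccna2 (0.00028), -1.32 ± 0.20 for Nusap1 (0.00019) and -0.66 ± 0.12 for Birc5 (0.00080), each lower in 4 of 4 mice with no overlap between the days. The linear ratios of day 25 over day 10 were 0.312 for Ube2c, 0.377 for Mki67, 0.39 for Ccna2, 0.399 for Nusap1 and 0.632 for Birc5. Top2a fell by 0.19 ± 0.06 (0.029), a call that was lost without mouse 315 or 320 of day 10 or mouse 305 or 320 of day 25 (adjusted p 0.051 to 0.11). Ccnb1, Cdc20, Plk1 and Aurka differed by 0.01 to 0.14 without passing. Leaving out 1 array at a time left 6 to 8 of the 11 probes past the threshold.

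The lower values of Ube2c, Mki67, Ccna2 and Nusap1 on day 25 than on day 10 kept their sign under each of the 15 alternatives to the processing, while Birc5 and Top2a turned positive under 3, median centring (0.30 and 0.058), centring on spike-ins (0.41 and 0.88) and centring on late erythroid genes (0.56 and 1.04). Alternatives that change only the probes tested, the brightness scale or the replicate block cannot change these differences, so that they say nothing about the sign. Relative to the median of all probes, which those 3 settings move to 0.39, 1.10 and 1.26, Mki67, Ube2c, Ccna2, Nusap1, Birc5 and Top2a lay below it under all 15. Centring on spike-ins or on late erythroid genes shifts all probes of an array alike and cannot change that position. Under median centring, however, the differences were smaller (-0.39 for Mki67, -0.44 for Ube2c, -0.23 for Ccna2 and -0.092 for Nusap1), none of them passed, and Cdc20 was called higher (0.63, adjusted p = 0.034), as were 10273 of all 20903 probes.

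Day 25 was also lower than the days between. Against day 20, 6 of the 11 probes were lower (12.2% of all probes called lower), Ube2c (-1.25), Ccna2 (-1.16), Nusap1 (-1.12), Mki67 (-0.86), its second probe (-0.40) and Birc5 (-0.60). Against day 15, 5 were lower (8.27%), Ube2c (-1.72), Nusap1 (-1.35), Ccna2 (-1.13) and both of Mki67 (-0.94 and -0.39), but not Birc5 (-0.33 ± 0.12, adjusted p = 0.065). Under median centring none of the 11 passed in either comparison, and with spike-in centring 5 and 7 probes were called higher and 3 and 2 lower against days 20 and 15. None of the 11 probes passed this threshold between any 2 of days 10, 15 and 20: 0.00957% of all probes passed between days 15 and 10, 0.0287% between days 20 and 10 and 0.0431% between days 20 and 15, while 4, 2 and 2 of the 11 had an unadjusted p under 0.05. Day 20 was called lower than day 10 for 2 probes with no background correction and 2 with Cy5 alone, and for 1 with background subtracted and 1 with scaling between arrays; against day 15 these 4 settings gave 0, 2, 1 and 1 lower.

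**Figure D2:**
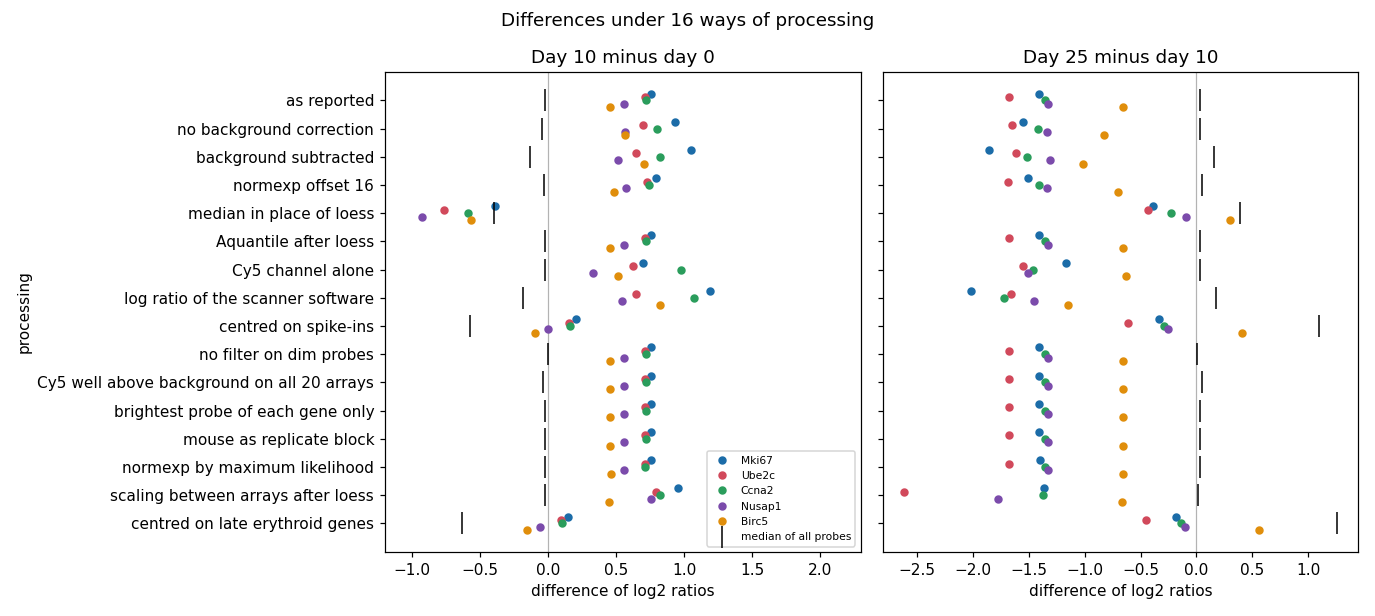
Differences of log2 ratios (x axis) between day 10 and day 0 (left) and between day 25 and day 10 (right) for 5 genes under each way of processing (y axis). Black ticks mark the median of all probes. The day 10 differences turn negative where the median takes the place of loess, those of Birc5 also with both other centrings and that of Nusap1 with late erythroid centring, whereas the day 25 differences of Mki67, Ube2c, Ccna2 and Nusap1 stay below 0 throughout.

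Net intensities are given here before any normalization between channels or arrays. For Ube2c, Cy5 ran from 5984 to 13099 on day 0 and 6270 to 9138 on day 10, and from 2683 to 3263 on day 25. In Cy3 the same reference gave 3321 to 3780 on day 0, 3686 to 4801 on day 10 and 2573 to 3086 on day 25. The Cy5 intensity on day 10 lay within the range of day 0 for this gene. Its day 10 ratio lay above that of day 0 after loess, which removes the trend of the ratio over brightness on each array. With Cy5 alone, quantile-normalized between arrays without loess, day 10 also lay above day 0. The differences were 0.62 for Ube2c, 0.70 for Mki67, 0.98 for Ccna2, 0.33 for Nusap1 and 0.52 for Birc5. For Mki67, net Cy5 intensity was 722 to 1160 on day 10 and 926 to 1576 on day 0, and for Nusap1 5743 to 8465 and 6749 to 13765. On day 25 Cy5 was 290 to 503 for Mki67 and 2430 to 2896 for Nusap1, below every array of days 0 and 10, with Cy3 at 278 to 336 and 1662 to 1793. Days 15 and 20 were dim as well: Mki67 had 421 to 481 and 209 to 475 in Cy5, and Nusap1 2751 to 3602 and 2466 to 4243, so that these raw intensities on day 25 overlapped those of day 20.

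**Figure D3:**
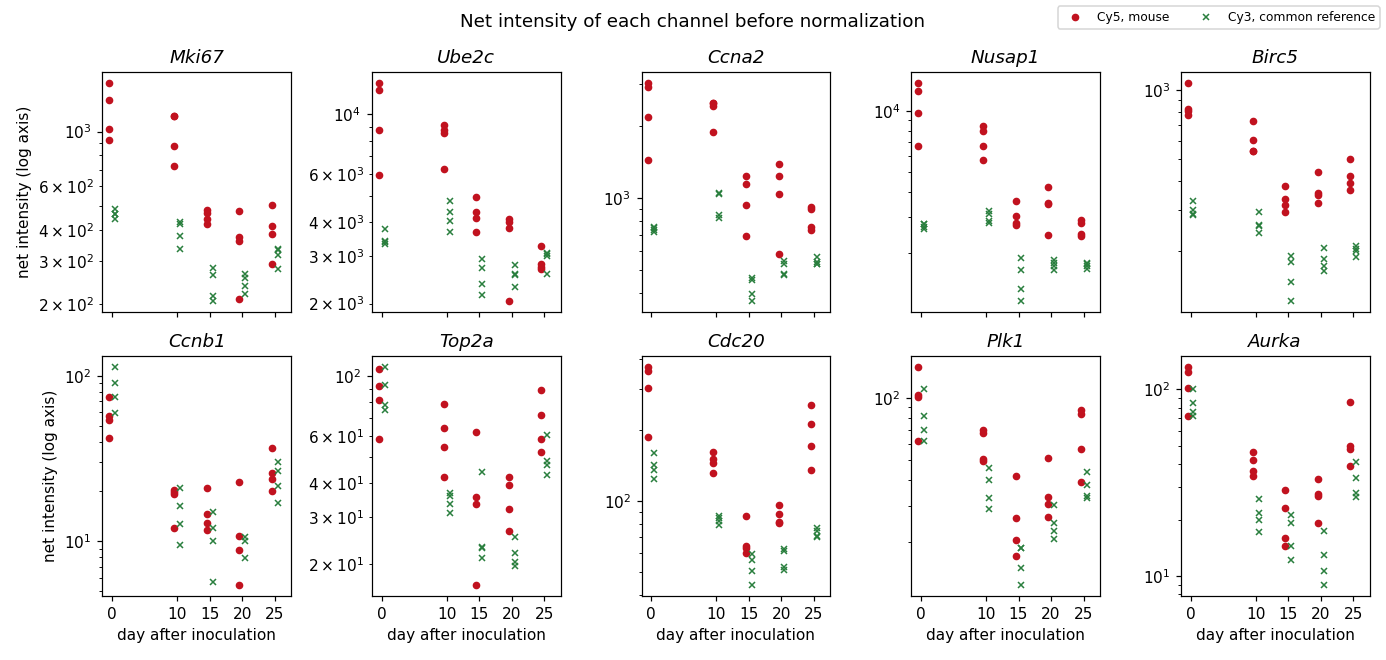
Net intensity (log axis, scales differ between panels) of the brightest probe of each gene by day after inoculation, Cy5 (mouse sample) as red points and Cy3 (common reference) as green crosses, 1 of each per array; values at or below 0 (Ccnb1 only) are not drawn. Ube2c, Nusap1 and Mki67 had Cy5 intensities on day 25 that lay below all those of days 0 and 10.

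The RNA spike-ins moved over the same days. Their 10 probes, which measure RNA added in known amounts, had a mean ratio of -0.65 on day 0, -0.09 on day 10, -0.31 on day 15, -0.49 on day 20 and -1.16 on day 25. Day 25 was 1.07 below day 10, with no overlap between the days (exact permutation test, two-sided, p = 0.029, the smallest that 4 against 4 arrays allow), and day 10 was 0.55 above day 0 (exact permutation test, p = 0.057). Under median centring the same differences were 0.11 and -0.77. Over the 20 arrays, which share the reference and the loess fit, the mean ratio of the 10 genes correlated with the spike-in mean at r = 0.93, and at 0.73 after day means were removed. By gene, r with the spike-in mean was 0.93 for Ube2c, 0.91 for Ccna2, 0.89 for Mki67, 0.87 for Nusap1 and 0.75 for Birc5, against -0.47 to 0.61 for the other 5. After the array's spike-in mean was subtracted, day 25 remained below day 10 by 0.61 for Ube2c, 0.34 for Mki67, 0.29 for Ccna2 and 0.25 for Nusap1, and was above it by 0.41 for Birc5. The part of the spike-in movement in the change of the mitotic genes was not tested.

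Of 20 late erythroid genes (globin, membrane skeleton, haem and clearance genes of maturing red cells), 16 were among the genes tested. On day 25, 16 of 16 were lower than on day 10, against 13.8% of all probes called lower. Their median was -1.24, against 0.03 over all probes. Under median centring 1 was lower and none higher, against 185 lower and 10273 higher of all 20903 probes. With spike-in centring 5 were lower and 2 higher, against 86 and 20010 of all probes. Glrx5, a mitochondrial iron-sulphur cluster protein, differed by -1.65 ± 0.18, Slc4a1, the band 3 anion exchanger, by -1.90 ± 0.27, Ank1, its cytoskeletal anchor, by -1.52 ± 0.21, and Ube2l6, the enzyme that conjugates ISG15, by -1.39 ± 0.18 (adjusted p 4.8e-05 to 0.00014). On day 10, 5 of the 16 were higher than on day 0 and none lower, against 4.09% and 7.12% of all probes. The list median of 0.59 became -0.84 under median centring. The mean ratio of the list by array ran from -0.35 to 0.70 on day 0, 0.73 to 0.83 on day 10, 0.48 to 0.86 on day 15, 0.21 to 0.67 on day 20 and -0.62 to -0.23 on day 25. Among 18 erythroid precursor genes, all tested, 14 were lower on day 25 than on day 10 (median -0.41), against 13.8% of all probes. The 14 included Trim10 (-1.90), the carbonic anhydrase gene Car2 (-1.56) and Zfpm1 (-1.03), the partner of GATA1. None of the 18 differed between day 10 and day 0 (median 0.22). Centred on spike-ins, the day 25 against day 10 medians became -0.17 for the late and 0.66 for the precursor list, and under median centring -0.20 and 0.07.

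Across the 20 arrays the mean of the 10 genes correlated at r = 0.97 with the mean of the precursor and 0.96 with that of the late erythroid list (0.92 and 0.86 within days). Over 12276 other genes taken singly, the median r was -0.16 and the highest 0.979. A list mean averages out noise that a single gene keeps, so that these are not like measures. Taking the late erythroid mean of each array away left the 5 moving genes differing between day 25 and day 10 by -0.46 for Ube2c, -0.18 for Mki67, -0.13 for Ccna2, -0.10 for Nusap1 and 0.56 for Birc5. The other named genes whose pattern was closest to the mean of the 10 were Mta3, a subunit of the NuRD chromatin complex (r = 0.979), Dnaja4, a co-chaperone (0.978), Bcl2l1, which encodes the survival factor Bcl-xL (0.977), Selenbp1, a selenium-binding protein (0.976), and Kdm7a, a histone demethylase (0.969), all over 20 arrays. In whole blood, fewer cells of a type and less RNA per cell cannot be told apart, and the source of the transcripts was not tested.

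**Figure D4:**
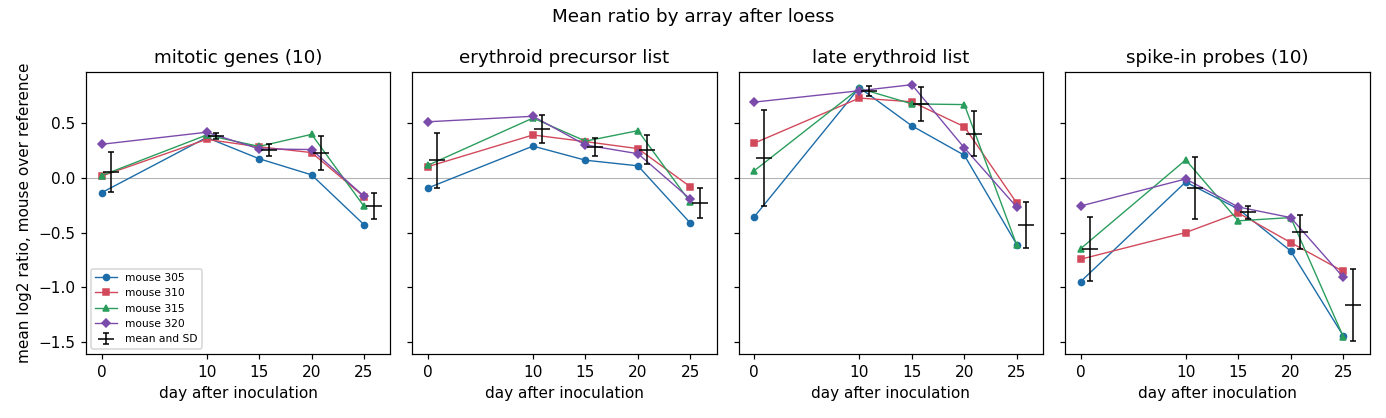
Mean log2 ratio by day after inoculation of the 10 mitotic genes, the erythroid precursor list, the late erythroid list and the 10 spike-in probes, with 1 line per mouse and the mean and SD of a day in black (n = 4). In each panel the 4 arrays of day 25 lie below those of day 10; under median centring the spike-in mean of day 25 is 0.11 above that of day 10 instead, and the median difference of the precursor list is 0.07.

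Other genes of mitosis and of S phase were called in both directions between day 25 and day 10, as were all probes, 17.7% higher and 13.8% lower. Of 52 further mitotic genes, 33 were tested, and between day 25 and day 10, 11 were lower and 2 higher, with a median of -0.12. Those lower included Cdc25b (-1.10 ± 0.21, adjusted p = 0.00089), the phosphatase that activates the mitotic kinase, Ccnb2 (-0.97 ± 0.17, 0.00061), cyclin B2, and Cenpe (-0.26 ± 0.06, 0.0048), the kinetochore kinesin, while Smc4, a condensin subunit, was higher (0.53 ± 0.13, 0.0048). On day 10, when 4.09% of all probes were called higher and 7.12% lower than on day 0, none of the 33 was higher and 2 were lower, Smc4 (-0.44) and Bub3 (-0.23); on day 15, with 2.03% of all probes called higher and 3.85% lower than on day 0, Cdca2 (0.56) and Pttg1, which encodes securin (0.68), were higher and Smc4 (-0.52) was lower. Among 38 DNA replication genes 33 were tested, and between day 25 and day 10, 8 were higher and 5 lower, with a median of 0.05, against a median of 0.03 for all probes; these shares lie near those of all probes. Lig1, a DNA ligase, differed by -1.26 ± 0.18 (0.00013), whereas Pcna, the replication clamp, was higher by 0.41 ± 0.08 (0.00088) and Mcm7, of the replicative helicase, by 0.32 ± 0.07 (0.0027). On day 10 Lig1 (0.89 ± 0.18) and Ccne1, cyclin E1 (0.26), were higher than on day 0 and Mcm4 (-0.37) and Orc6 (-0.23) were among the 3 lower. Of 12 inhibitors and quiescence genes, 11 were tested, 4 higher and 3 lower on day 25 than on day 10, and 2 higher and 1 lower on day 10 than on day 0. Cdkn2c, which encodes the p18 inhibitor (-0.80 ± 0.11, 0.00011), and Rb1, the retinoblastoma protein (-0.85 ± 0.14, 0.00040), were lower on day 25 than on day 10, and Btg1, an antiproliferative gene of resting lymphocytes, was higher (0.57 ± 0.12, 0.0021). Under median centring 6 of the 11 were higher and none lower on day 25, and with spike-in centring 9 were higher and none lower. Centred on spike-ins, 30 of the 33 mitotic and 32 of the 33 replication genes were higher on day 25 than on day 10, and under median centring 5 and 20 were higher and 1 and 0 lower. These centrings also move all probes. Of the 20903 tested, 20010 were called higher and 86 lower with spike-in centring, and 10273 and 185 under median centring.

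Lists of other cells that could bring dividing cells into blood were also compared between day 25 and day 10, when 17.7% of all probes were called higher and 13.8% lower. Of 12 granulocyte precursor genes 6 were tested and none passed, with a median of -0.09; Elane, Ms4a3 and Fcnb were well above background on no array and Mpo on 1. Of 10 progenitor genes 5 were tested, and Myb (0.27) was higher; Kit was well above background on 1 array and Flt3 on 2. Of 8 plasma cell genes tested of 10, Pou2af1 (0.77), Mzb1 (0.26) and Jchain (0.26) were higher and Ell2 (-1.03) was lower. B cell genes gave 4 higher of 10, T cell genes 6 higher of 11, mature neutrophil genes 2 higher of 12 and monocyte genes 1 higher of 10, with none lower in these 4 lists; none of the 10 NK and cytotoxic genes passed, and 3 of 12 platelet genes were lower. Of 13 hepatoma and liver genes 7 were tested, and Gpc3, the glypican of hepatoma cells, was higher (0.46); Apoa1 and Igf2 were well above background on no array. Between day 10 and day 0, 4.09% of all probes were called higher and 7.12% lower. In that comparison 9 of 12 mature neutrophil genes were lower (median -0.86). Of the other genes compared, 1 platelet gene and H19, an imprinted RNA of fetal liver (0.19), were higher, and 1 T cell and 2 plasma cell genes were lower. With other centring the list medians between day 25 and day 10 were 1.14 for platelet, 1.17 for B cell, 1.49 for T cell and 1.23 for mature neutrophil genes under median centring, and 0.99, 1.16, 1.35 and 1.35 with spike-in centring, with none of these genes lower. For the granulocyte precursor genes they were -0.07 and 0.98, and for all probes 0.39 and 1.10. For the mature neutrophil genes the day 10 median relative to day 0 was -1.84 and -1.41. The part of these lists in the change of the mitotic genes was not tested.

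**Figure D5:**
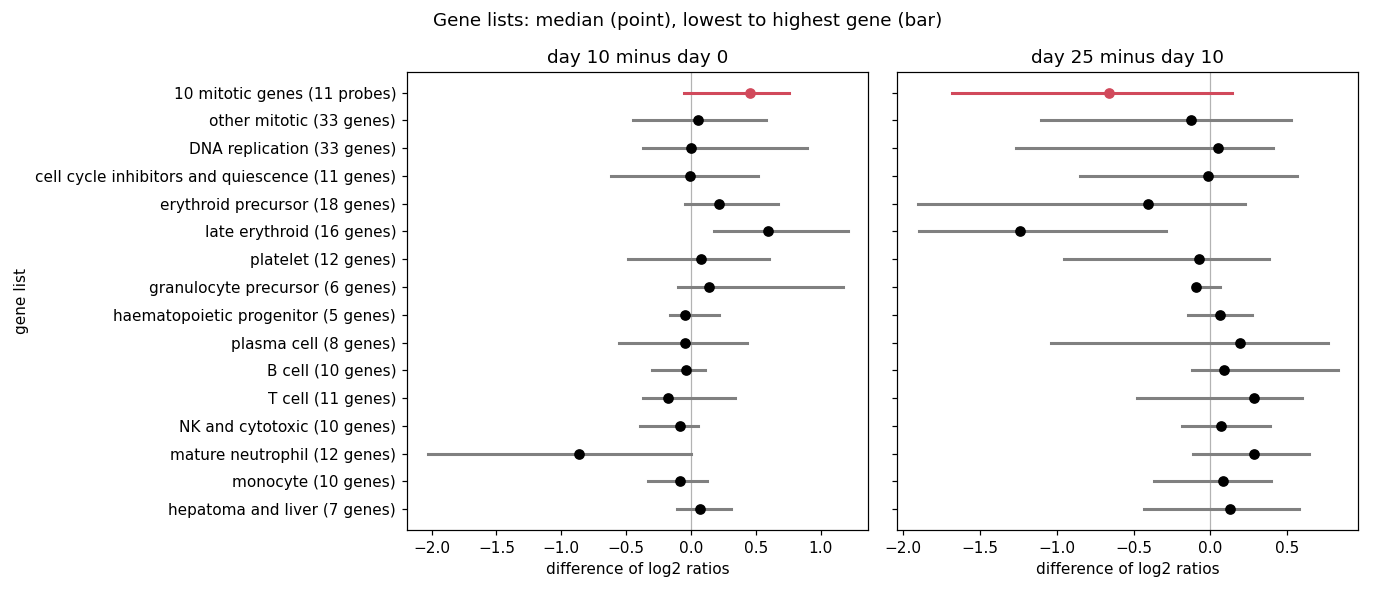
Difference of log2 ratios (x axis) for day 10 minus day 0 (left) and day 25 minus day 10 (right): the median (point) and the lowest to highest gene (bar) of the mitotic genes in red and of 15 other lists in grey (y axis, with the number of genes tested). The late erythroid list has the highest median of all lists on the left (0.59) and the lowest on the right (-1.24); its day 10 median is -0.84 under median centring.

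The 5 remaining probes were not tested because they were well above background on fewer than 4 arrays. The 2 further Ccnb1 probes ranged from -0.12 to 0.19 and the 2 further Top2a probes from -0.18 to 0.32. The second Nusap1 probe, with 2 arrays well above background in Cy5, ranged from -0.21 to 0.50.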

How the data were processed

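Per the labels, blood of 4 mice on 5 days was kept in RNAlater, and its RNA was labelled with Cy5 and hybridised with a Cy3-labelled common reference on 20 Agilent arrays, with no dye swap. The deposited intensities are mean spot and median local background signals that, per the file headers, came from version 9.1.3.1 of Agilent Feature Extraction. Its log10 ratio of Cy5 over Cy3, dye-normalized by that software per the file headers, served as an alternative. The series value table held the same log10 ratios as deposited in the scanner files, at 900360 of 900360 values within a tolerance of 1e-06.

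Background was corrected by normexp with an offset of 50, and log2 ratios were normalized by loess within each array, with control spots at weight 0. Spots marked non-uniform were left out and replicate spots were averaged. Probes tested had Cy5 signals flagged by the scanner software as well above background on 4 or more of the 20 arrays and values on 3 or more arrays of every day. Day means were compared over all probes kept with limma 3.58.1 (lmFit and eBayes, R 4.3.3, two-sided, Benjamini-Hochberg, threshold 0.05), with no block. The test was checked on simulated data. Gene names were updated through RefSeq accessions for 23374 probes, symbols for 6733 and synonyms for 2919; 8148 kept the name of the array design. The number of arrays limits the precision.

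The genes and the 15 other lists (other mitotic, DNA replication, inhibitors and quiescence, erythroid precursor, late erythroid, platelet, granulocyte precursor, progenitor, plasma cell, B cell, T cell, NK and cytotoxic, mature neutrophil, monocyte, hepatoma and liver) were chosen with earlier results of these data known. The brightest probe of a gene is given per array; of each other list at most 4 called genes per comparison are named, those with the smallest adjusted p (a gene this rule names is not reported here), and the 5 genes of most similar pattern are those with the highest Pearson r.

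Mouse numbers pair the arrays, since the same 4 animals were bled on each day. After day means were removed, the mean r was 0.0856 over 40 pairs of arrays of the same mouse, against -0.0291 over 120 pairs of different mice. Alternatives covered background correction, normalization, centring, the filter, the replicate block and leaving out each array.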

Additional observations from a re-analysis of the deposited data

Results flagged for a closer look

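Among the 50 sets of 4 arrays given by 10 genes and 5 days, 2 held an array far from the other 3, and chance gives about 1 in 20. Both were mouse 310 on day 15. Ccnb1 had a ratio of -0.03834 there, against 0.001986 to 0.004635 in the other mice, and Cdc20 had 0.09074, against 0.009054 to 0.02049. The gap to the nearest array took 0.938 and 0.86 of the whole range, above Dixon's limit for 4 samples. The noise width in Cy5 was 71.9 on that array and 457 to 814 on the other 3. A probe near or below the width is drawn toward a ratio of 0, and the part of the width in these gaps was not tested. Neither gene differed between day 15 and any other day at an adjusted p under 0.05 by limma.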

How the results depend on the processing

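Of the 11 probes, 5, 1, 0 and 0 passed on days 10, 15, 20 and 25 against day 0, 7 between day 25 and day 10 and 6 over all days; values below stand against these counts and against medians over the probes of 0.46, 0.13, 0.14, -0.20 and, for day 25 against day 10, -0.66. Aquantile scaling, an offset of 16 and normexp by maximum likelihood (chosen after seeing the data) kept every count. Aquantile scaling leaves the log ratios unchanged, so that it could not change a count. The cause of each change was not tested.

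Under median centring, 0, 0 and 1 probes passed on day 10 and day 15 against day 0 and on day 25 against day 10, and 0 over all days, with medians of -0.39, -0.46, 0.058 and, for day 20 against day 0, -0.18. Day 10 against day 0 turned to -0.39 for Mki67, -0.76 for Ube2c, -0.59 for Ccna2 and -0.57 for Birc5, day 15 against day 0 to -0.64 for Ube2c, and day 25 against day 10 to 0.30 for Birc5 and 0.058 for Top2a. With spike-in centring the 5 probes called on day 10 against day 0 were all lower, and of the 7 called on day 25 against day 10, 6 were higher and 1 lower. Day 15 then gave 0 and day 25 against day 0 gave 5 calls, 4 higher and 1 lower, and the medians were -0.096, -0.21, -0.014 and 0.31 for the 4 days against day 0 and 0.41 for day 25 against day 10. Of all 20903 probes, 18037 were called lower on day 10 against day 0 with this centring. Higher calls numbered 20010 on day 25 against day 10 and 17244 on day 25 against day 0. Day 10 against day 0 was -0.096 for Birc5, -0.49 for Top2a and -0.43 for Cdc20, day 25 against day 0 was 0.52 for Plk1, and day 25 against day 10 was 0.41 for Birc5 and 0.88 for Top2a. With late erythroid centring (added after seeing the data), day 10 against day 0 gave 5 calls, all lower, day 25 against day 10 gave 8, 7 higher and 1 lower, day 15 against day 0 gave 5, all lower, and day 25 against day 0 gave 5, all higher, and the medians were -0.16, -0.37, -0.086, 0.41 and 0.56. Of all 20903 probes, 18618 and 17766 were then lower on days 10 and 15 against day 0. On day 25, 20223 were higher against day 10 and 19282 against day 0. Day 10 against day 0 was -0.16 for Birc5, -0.55 for Top2a and -0.49 for Cdc20, day 25 against day 0 was 0.49 for Top2a and 0.61 for Plk1, and day 25 against day 10 was 0.56 for Birc5 and 1.04 for Top2a.

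Subtracting background and the scanner software's ratios moved the median of all probes to -0.14 and -0.18 for day 10 against day 0 and to 0.15 and 0.17 for day 25 against day 10. With background subtracted, day 15 gave 6 and day 20 gave 1 call, with medians of 0.62, 0.25, -0.39 and -1.01 for days 15, 20 and 25 over day 0 and for day 25 over day 10. With no background correction, days 15, 20 and 25 gave 7, 2 and 4 calls, the medians of day 15 against day 0 and of day 25 against day 10 were 0.38 and -0.82, and Aurka was -0.24 on day 20 and -0.15 on day 25 against day 0. The scanner software's ratios gave 8, 2 and 3 calls on days 15, 20 and 25, medians of 0.69, 0.25, -0.65 and, for day 25 against day 10, -1.15, and -1.42 for Aurka on day 20. Cy5 alone gave 6, 1 and 2 calls on days 15, 20 and 25, a day 15 median of 0.22, and day 10 against day 0 of 0.19 for Plk1 and day 15 against day 0 of 0.22 for Top2a. In the order given, these settings called 3247, 3462, 3211 and 3743 of all 20903 probes higher on day 15. They called 4705, 4809, 5939 and 6100 lower. On day 25 they called 4, 1277, 101 and 1169 higher and 9, 1651, 705 and 1299 lower. Scaling between arrays after loess (added after seeing the data) gave 1 call on day 10, 5 on day 15 and 4 on day 25 against day 10, with medians of 0.27, 0.019, -0.078 and, for day 25 against day 10, -0.45.

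With no filter on dim probes, 2 of 16 probes passed on day 10 and 0 on day 15, with medians of 0.11, -0.00063, -0.058 for day 25 and -0.16 for day 25 against day 10. With only the 8 probes well above background on all arrays, day 25 gave 1 call, with medians of 0.25 on day 20, -0.45 on day 25 and -1.02 for day 25 against day 10. With 1 probe per gene the medians of day 10 against day 0 and of day 25 against day 10 were 0.29 and -0.42. The replicate block, which pairs the arrays of a mouse, gave 2 calls on day 20 and 2 on day 25 and changed no other count.

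Leaving out 1 array at a time gave 0 to 6, 0 to 3, 0 to 2 and 0 to 4 calls on days 10, 15, 20 and 25 against day 0, 6 to 8 for day 25 against day 10 and 6 to 6 over all days. The medians ran from 0.31 to 0.52, 0.036 to 0.19, 0.075 to 0.20 and -0.24 to -0.13, and from -0.74 to -0.57 for day 25 against day 10. Low signal limits Ccnb1, Aurka, Plk1, Top2a and Cdc20, for which a small ratio near background or the noise width is not evidence of a steady level.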
